A study of Mus musculus with 6 samples.

Results

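The transcripts of 38 genes of autophagy and mitophagy were compared in mouse embryonic fibroblasts (MEFs) that had Yme1l (WT) or lacked it (Yme1l-/-). The genes were chosen by name from the core autophagy machinery, its cargo receptors and the receptors that mark mitochondria, and every locus of the count table that carried one of these symbols was taken. The table held 51499 loci, of which 13867 had enough counts for a test. Of the 38 genes, 37 were found and 36 were tested. Map1lc3b was not analysed here, and Atg2a was listed at 0 in every library.

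Poly(A)-selected RNA was sequenced from 3 cultures of each genotype, to ask how loss of YME1L alters transcript levels. Yme1l encodes a protease that is anchored in the inner membrane of mitochondria and driven by ATP. Both genotypes descend from the same kind of cells, SV40-immortalized MEFs with floxed Yme1l alleles that had received Cre, and each was derived clonally. The WT cells carry the genotype Yme1l fl/fl, and the Yme1l-/- cells carry the deletion. How many clones the cultures of a genotype came from is not stated in the sources used here, so that differences between clones and between genotypes cannot be told apart. The libraries held between 33180867 and 49351107 counted fragments, and the 2 deepest were Yme1l-/- replicates 2 and 3. Yme1l1, the targeted gene, had 182.8 to 192.2 CPM in the WT libraries and 37.9 to 40.6 CPM in the Yme1l-/- libraries, which left 20.7% of the WT level. CPM are counts per 1000000 fragments after scaling of the library size. All 11 fibroblast markers were in the table, but Thy1 and Lum had at most 11 counts in any library. Their summed level, carried by Fn1, Vim, Col1a1 and Col1a2, was 11000 to 11500 CPM in WT and 6720 to 7210 CPM in Yme1l-/-, and Col1a1 was higher in Yme1l-/- while the other 3 of these were lower. WT replicate 2 stood apart for Col3a1, with 9860 counts against 2858 and 2974 in the other WT libraries, and for Dcn. Of the epithelial markers, Krt18 was at 31.9 CPM in WT and 0.026 CPM in Yme1l-/-, Epcam at 1.29 and 0.085 CPM, and Krt8 and Cdh1 were under 0.3 CPM on average in both genotypes. The neural markers Rbfox3, Gfap and Olig2 had at most 3 counts in any library. Summed macrophage markers were at 1.74 to 1.96 CPM in WT and 3.77 to 4.14 CPM in Yme1l-/-, mostly Cd68, with at most 1 count of Ptprc or Adgre1 in any library. Muscle markers, mostly Des, were at 0.398 to 0.604 CPM in WT and 2.2 to 3.2 CPM in Yme1l-/-, and endothelial markers, mostly Kdr, at 0.827 to 1.37 and 1.63 to 1.98 CPM. Cd68, Des and Kdr were called higher. The part of these marker differences in the results below was not tested. In bulk RNA, fewer cells of a kind and less RNA per cell cannot be told apart.

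Autophagy encloses cytoplasm in a double membrane, the autophagosome, and delivers it to the lysosome for degradation. The ULK1 kinase complex starts the process, a lipid kinase complex marks the membrane, ATG9 vesicles and ATG2 supply lipid, and a pair of ubiquitin-like conjugation systems couples ATG8 proteins (LC3 and GABARAP) to the growing membrane. Cargo receptors bind ATG8 on one side and cargo on the other, and in mitophagy the cargo is a mitochondrion, marked by ubiquitin through PINK1 or by receptors in its outer membrane.

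In Yme1l-/- cells, 18 of the 36 tested genes were higher and 9 were lower at an edgeR adjusted p under 0.05 (quasi-likelihood test), and 9 did not pass. The shares were 50% higher and 25.0% lower, beside a background of 33.6% higher and 34.1% lower among all loci tested. These background shares also apply to the counts by role and by list below. The median log2 fold change (log2FC, Yme1l-/- over WT) of the 36 genes was 0.21, beside -0.0041 for all loci, and single genes ranged from -0.57 for Map1lc3a to 1.63 for Calcoco1. In 19 genes every Yme1l-/- library exceeded every WT library, in 9 every one was below, and in 8 the ranges overlapped. The background for such separation was 35.9% above and 36.0% below. Calcoco1 was the 1 gene that changed by at least 2-fold, where the background was 17.7% of all loci. Taken library by library against the WT mean, the median over the genes was 0.11, 0.26 and 0.22 on the log2 scale in Yme1l-/- replicates 1 to 3.

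**Figure D1:**
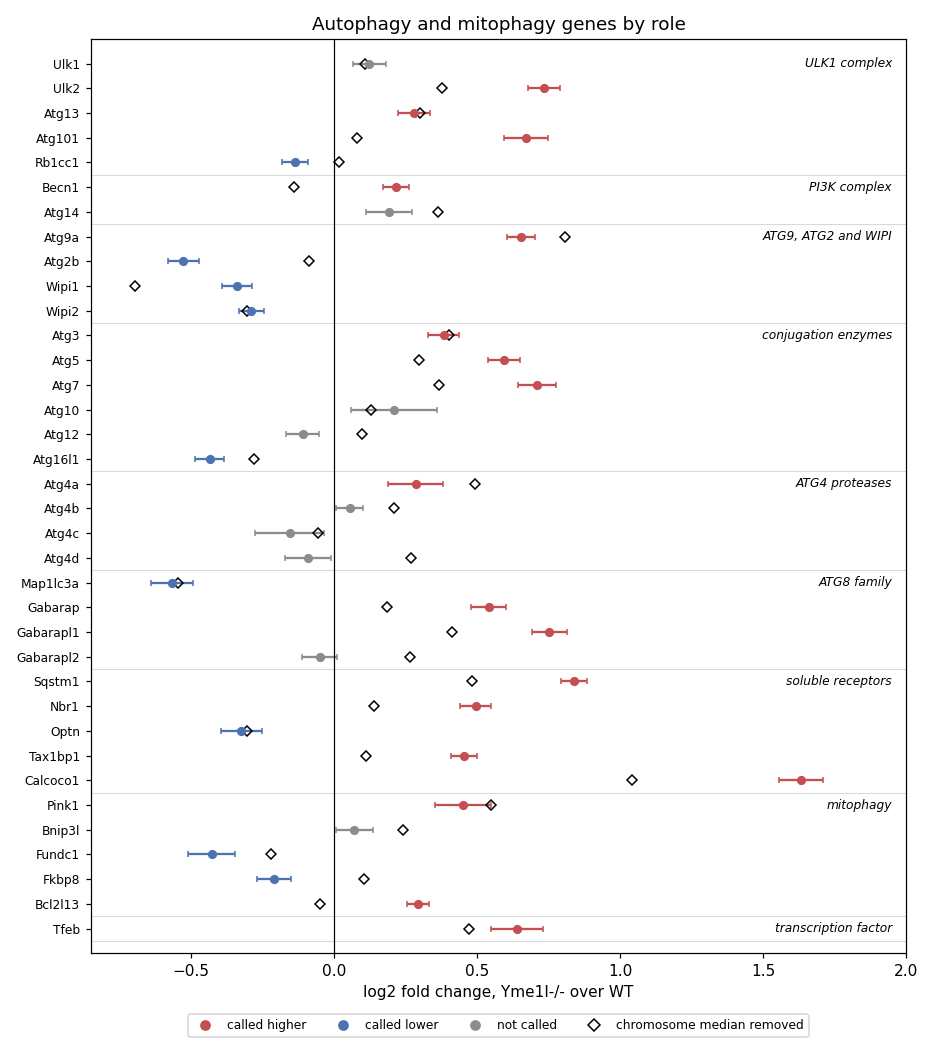
Log2 fold change, Yme1l-/- over WT, of each of the 36 tested autophagy and mitophagy genes, grouped by role, with bars of 1 standard error. Filled points are coloured by the edgeR call, and open diamonds are the same fold changes after the median of each gene's chromosome was removed, which brings Atg101 from 0.67 to 0.08 and leaves Calcoco1 at 1.04.

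Promoter sequence was read from RefSeq (GRCm38.p6), from 250 bases before to 50 bases after the annotated start, and was found for 32 of the 38 genes. TFEB and its relatives bind the E-box CACGTG, often with a preceding T in the longer form TCACGTG, and both were searched on either strand. The letters CACGTG occurred in the windows of 4 of the 32 genes (12.5%), Atg3, Atg5, Atg7 and Atg14, and in 8.09% of all 27025 genes of the table. Among all tested genes with a window, CACGTG was held by 11.9% of those called higher, 12.5% of those called lower and 10.6% of those not called, shares like that of the 32 genes. TCACGTG, which contains CACGTG, occurred in 3 of the 32 (9.38%) and in 4.29% of all genes. It was held by 6.95% of the tested genes called higher, 7.31% of those called lower and 6.54% of those not called. Neither TGATGNAA, a form of the site of ATF4, nor GTAAACA, a form of the FOXO site, occurred in the windows of the 32 genes, where 4.51% and 4.05% of all genes held them. Among tested genes TGATGNAA was held by 2.17% to 3.27% and GTAAACA by 2.59% to 3.09%, by call. Of the 4 genes with CACGTG, Atg14 was not called, and its site begins at base -1 and runs past the start, so it is not printed. The windows below hold the E-boxes that lie wholly before the start, those of the conjugation genes Atg3, Atg5 and Atg7, which were called higher. Each is printed 5′ to 3′ along the gene, and capitals mark the E-box with its flanking T or A. The Atg3 window (chr16:45158695-45158803, plus strand) holds 2 such sites, the Atg5 window (chr10:44268285-44268338, plus strand) 1, and the Atg7 window (chr6:114670924-114671009, plus strand) 1. The Atg7 start used by RefSeq lies inside the Atg7 locus of the deposited table.
Atg3: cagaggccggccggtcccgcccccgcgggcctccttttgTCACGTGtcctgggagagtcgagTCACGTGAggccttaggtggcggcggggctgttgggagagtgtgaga
Atg5: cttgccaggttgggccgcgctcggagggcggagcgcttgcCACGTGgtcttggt
Atg7: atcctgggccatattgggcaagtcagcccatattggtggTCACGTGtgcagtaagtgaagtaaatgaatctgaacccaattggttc

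The 3 genes with the highest fold changes, Calcoco1, Sqstm1 and Gabarapl1, held none of the 4 motifs in their windows. Their upstream sequence, from 250 to 51 bases before the start, is printed for comparison and has no capitals because it holds no match. The windows are Calcoco1 (chr15:102722229-102722428, minus strand), Sqstm1 (chr11:50210871-50211070, minus strand) and Gabarapl1 (chr6:129532942-129533141, plus strand). The median GC content was 59.7% over the windows of the autophagy and mitophagy genes and 52.7% over all windows of the table.
Calcoco1: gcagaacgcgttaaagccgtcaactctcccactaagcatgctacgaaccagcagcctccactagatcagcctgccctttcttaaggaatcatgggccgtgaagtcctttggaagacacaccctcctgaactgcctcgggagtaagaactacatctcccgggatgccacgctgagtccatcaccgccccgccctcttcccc
Sqstm1: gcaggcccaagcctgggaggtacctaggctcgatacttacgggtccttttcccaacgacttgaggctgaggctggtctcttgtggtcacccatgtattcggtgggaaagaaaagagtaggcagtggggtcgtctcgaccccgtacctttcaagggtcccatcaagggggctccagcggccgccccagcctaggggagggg
Gabarapl1: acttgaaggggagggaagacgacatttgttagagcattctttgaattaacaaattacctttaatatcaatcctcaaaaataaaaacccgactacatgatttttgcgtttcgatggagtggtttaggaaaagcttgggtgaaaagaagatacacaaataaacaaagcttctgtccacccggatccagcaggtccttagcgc

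Of the 5 genes of the ULK1 complex, which receives the nutrient signal and starts autophagosome formation, 3 were higher and 1 was lower in Yme1l-/- cells. Ulk2, the paralogue of the kinase Ulk1 (mm10 chromosome 11, 61775649 to 61855073, where spans are those of the loci in the deposited table), had 30.0, 31.5 and 33.4 CPM in WT replicates 1 to 3 and 51.4, 51.4 and 54.9 CPM in Yme1l-/-. The groups did not overlap, and each Yme1l-/- library stood well above the highest WT library. Its mean rose from 31.6 ± 1.68 to 52.6 ± 1.99 CPM (SD, n = 3), a log2FC of 0.73 ± 0.06 (SE) at an edgeR adjusted p of 4.74e-07, with 0.38 left relative to chromosome 11. Ulk1 itself (chromosome 5, 110784488 to 110810097) had 62.0, 62.0 and 66.7 CPM in WT and 64.7, 73.5 and 69.3 CPM in Yme1l-/-. Here the lowest Yme1l-/- library lay below the highest WT library, and the log2FC of 0.12 ± 0.06 (SE) did not pass (edgeR adjusted p = 0.0769). Without WT replicate 3 the edgeR adjusted p was 0.0473, and without Yme1l-/- replicate 1 it was 0.0147. With the replicate number as a block it was 0.0336. The ratio of Ulk2 to Ulk1 counts was 0.484, 0.508 and 0.4998 in WT and 0.795, 0.6995 and 0.792 in Yme1l-/-. The genes lie on different chromosomes, and with chromosome medians removed their log2FC values were 0.38 and 0.11. Per length, the authors' combined FPKM placed Ulk1 above Ulk2 in both genotypes, at 15.9 and 6.91 in WT and at 17.9 and 11.4 in Yme1l-/-.

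The regulatory subunits of the complex moved unequally. Atg101 (chromosome 15, 101284301 to 101290934), which stabilizes ATG13, had 19.5, 16.7 and 17.4 CPM in WT and 30.8, 27.8 and 26.9 CPM in Yme1l-/-. Every Yme1l-/- library exceeded every WT library. The mean rose from 17.9 ± 1.47 to 28.5 ± 2.03 CPM (SD, n = 3), with a log2FC of 0.67 ± 0.08 (SE) and an edgeR adjusted p of 1.38e-05. The median of all tested loci on chromosome 15 was 0.59, and after its removal the fold change of Atg101 was 0.08 and was not called. Atg13, the adaptor that recruits the complex, rose by 0.28 ± 0.06 (SE) on the log2 scale, from 25.3 to 30.7 CPM (edgeR adjusted p = 0.00102). Rb1cc1, which encodes the scaffold FIP200, fell by 0.14 ± 0.04 (SE) on the log2 scale, from 119.1 to 108.3 CPM (edgeR adjusted p = 0.0172). That call was lost without WT replicate 3 (0.0663) and without Yme1l-/- replicate 3 (0.0722), and Rb1cc1 equalled the median of its chromosome to within 0.02 on the log2 scale.

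The class III phosphatidylinositol 3-kinase complex was represented by 2 genes, of which 1 passed. Becn1, the scaffold beclin 1, rose from 88.7 to 103.1 CPM, a log2FC of 0.22 ± 0.05 (SE) at an edgeR adjusted p of 0.00148. Its rise was smaller than the median of chromosome 11 (0.36), and relative to that median it was lower, at -0.14 (edgeR adjusted p = 0.0218). Atg14, the subunit that directs the complex to autophagosomes, had 11.4, 12.6 and 11.5 CPM in WT and 12.8, 13.9 and 13.7 CPM in Yme1l-/-. The libraries did not overlap, but the log2FC of 0.19 ± 0.08 (SE) missed the threshold (edgeR adjusted p = 0.0505). It passed with the replicate number as a block (0.0394), without WT replicate 2 (0.0374) and without Yme1l-/- replicate 1 (0.0377).

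Of the 4 tested genes of lipid supply and of phosphoinositide binding, 3 were lower and 1 was higher. Atg9a, the lipid scramblase carried on vesicles, was counted in a locus merged with Abcb6 (chromosome 1, 75171717 to 75210813), so its counts cannot be divided from those of Abcb6. That locus had 50.6, 45.8 and 49.6 CPM in WT and 76.2, 76.7 and 76.7 CPM in Yme1l-/-. The Yme1l-/- libraries were nearly equal and all above WT, with means of 48.7 ± 2.55 and 76.6 ± 0.272 CPM (SD, n = 3). The log2FC was 0.65 ± 0.05 (SE) and the edgeR adjusted p was 4.79e-07, and the locus was higher than 88.9% of the tested loci on chromosome 1.

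Atg2b, a lipid transfer protein gene (chromosome 12, 105616136 to 105703023), moved the other way. It had 94.0, 92.0 and 100 CPM in WT and 62.4, 68.9 and 67.2 CPM in Yme1l-/-. The highest Yme1l-/- library was far below the lowest WT library, and the mean fell from 95.4 ± 4.16 to 66.2 ± 3.35 CPM (SD, n = 3), a log2FC of -0.53 ± 0.05 (SE) at an edgeR adjusted p of 4.94e-06. Chromosome 12 had the lowest median of all chromosomes (-0.44), and with it removed Atg2b was at -0.09 and was not called. The phosphoinositide-binding genes Wipi1 and Wipi2 both fell. Wipi1 went from 36.4 to 28.8 CPM, a log2FC of -0.34 ± 0.05 (SE) at an edgeR adjusted p of 1.34e-04, although it lies on chromosome 11, where 77.6% of the tested loci had a log2FC above 0. Relative to that chromosome it was at -0.70. Wipi2 went from 162.5 to 133.1 CPM, with a log2FC of -0.29 ± 0.04 (SE) and an edgeR adjusted p of 1.09e-04. Atg2a, the paralogue of Atg2b (chromosome 19, 6241668 to 6262335), was listed at 0 in all 6 libraries. Nearby loci on either side, among them Ppp2r5b, Men1 and the splicing factor gene Sf1, were also listed at 0, so no level is given for Atg2a.

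**Figure D2:**
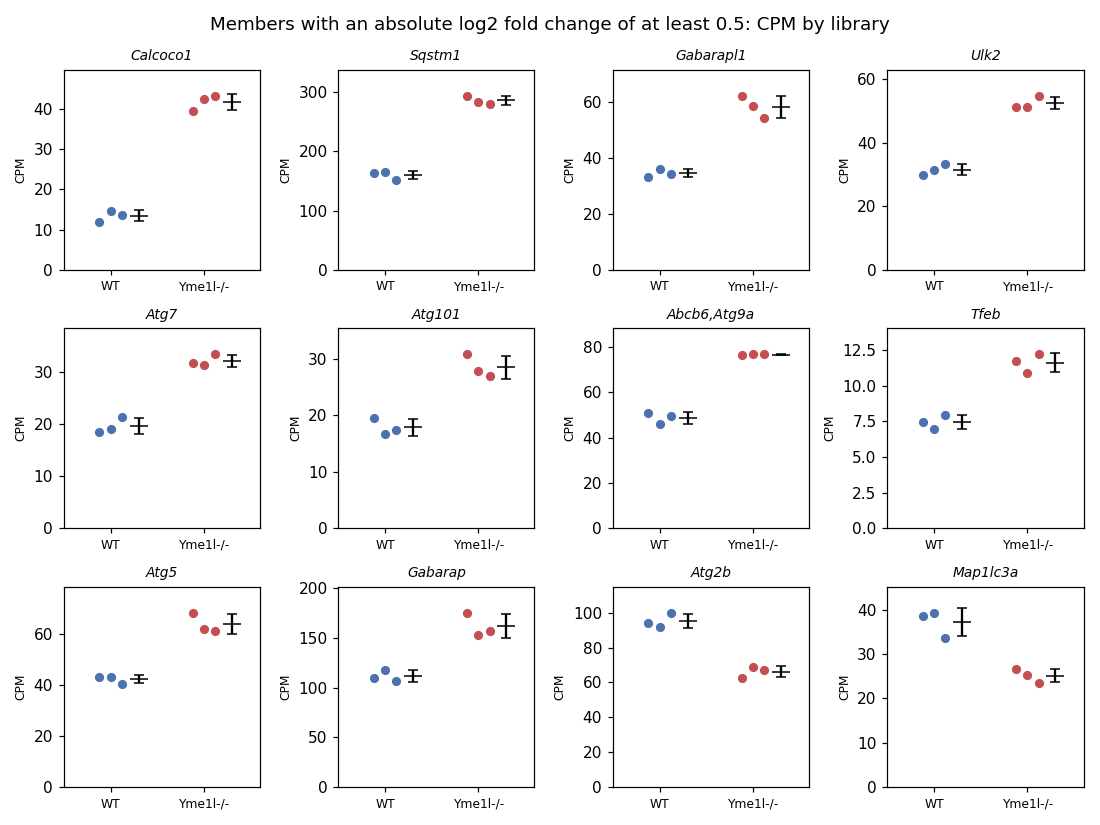
CPM of the 12 loci with an absolute log2 fold change of at least 0.5, 1 panel per locus with its own axis from 0, with 1 point per library and, beside the points, the mean with a bar of 1 SD (n = 3 per genotype). In each panel the Yme1l-/- libraries lie wholly above or, for Atg2b and Map1lc3a, wholly below the WT libraries.

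The conjugation machinery links ATG12 to ATG5 and lipid to ATG8, and 3 of its 6 genes were higher and 1 was lower in Yme1l-/-. Atg7, the E1-like enzyme of both systems (chromosome 6, 114643097 to 114860614), had 18.6, 19.1 and 21.4 CPM in WT and 31.7, 31.4 and 33.4 CPM in Yme1l-/-. The groups were far apart. Its mean rose from 19.7 ± 1.5 to 32.2 ± 1.09 CPM (SD, n = 3), a log2FC of 0.71 ± 0.07 (SE) at an edgeR adjusted p of 2.74e-06. Atg5, which receives ATG12 (chromosome 10, 44268358 to 44364291), had 43.2, 43.1 and 40.5 CPM in WT and 68.3, 62.1 and 61.3 CPM in Yme1l-/-. The lowest Yme1l-/- value exceeded the highest WT value, and the mean rose from 42.3 ± 1.56 to 63.9 ± 3.87 CPM (SD, n = 3). The log2FC of Atg5 was 0.59 ± 0.06 (SE), and its edgeR adjusted p was 2.78e-06. Atg3, the E2-like enzyme that hands ATG8 to lipid, had 38.3, 38.4 and 38.5 CPM in WT and 52.6, 50.7 and 47.0 CPM in Yme1l-/-, a log2FC of 0.38 ± 0.05 (SE) at an edgeR adjusted p of 6.03e-05. All 3 of these genes remained called as higher with the chromosome medians removed, at 0.37 for Atg7, 0.30 for Atg5 and 0.40 for Atg3, and they are the genes whose E-box windows are printed above.

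Atg16l1, which brings the ATG12-ATG5 conjugate to the membrane, fell from 47.1 to 34.9 CPM, a log2FC of -0.43 ± 0.05 (SE) at an edgeR adjusted p of 1.61e-05. It was lower in the same libraries in which its partner Atg5 was higher, and it stayed lower relative to its chromosome (-0.28). Atg12 had 32.7, 36.0 and 34.0 CPM in WT and 30.8, 33.3 and 31.1 CPM in Yme1l-/-. The ranges overlapped, and the log2FC of -0.11 ± 0.06 (SE) did not pass (edgeR adjusted p = 0.118). Atg10, the E2-like enzyme for ATG12, was the least abundant of the tested genes per length, with authors' combined FPKM values of 2.41 in WT and 2.76 in Yme1l-/-. It had between 76 and 166 counts in a library, and its log2FC of 0.21 ± 0.15 (SE) did not pass (edgeR adjusted p = 0.235).

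The 4 ATG4 proteases cleave newly made ATG8 proteins and release them from lipid. Atg4a had 11.4, 10.8 and 10.1 CPM in WT and 11.5, 14.1 and 13.6 CPM in Yme1l-/-, so that Yme1l-/- replicate 1 was barely above the WT range. Its log2FC was 0.28 ± 0.10 (SE) at an edgeR adjusted p of 0.0206, and 0.49 relative to its chromosome, and the call was lost without WT replicate 2 (0.0514), WT replicate 3 (0.0783), Yme1l-/- replicate 2 (0.0935) or Yme1l-/- replicate 3 (0.0656). Atg4b, per length the most abundant of the 4 with authors' combined FPKM values of 19.8 in WT and 21.9 in Yme1l-/-, had 43.7, 41.1 and 41.1 CPM in WT and 44.2, 42.9 and 43.5 CPM in Yme1l-/-. These ranges overlapped, and its log2FC was 0.05 ± 0.05 (SE) at an edgeR adjusted p of 0.341. Atg4c had 8.40, 8.80 and 9.28 CPM in WT and 6.46, 8.33 and 8.89 CPM in Yme1l-/-, with a log2FC of -0.16 ± 0.12 (SE) and an edgeR adjusted p of 0.279. Atg4d had 25.8, 23.8 and 23.7 CPM in WT and 25.6, 20.6 and 22.7 CPM in Yme1l-/-. For both Atg4c and Atg4d the genotypes overlapped. The log2FC of Atg4d was -0.09 ± 0.08 (SE) at an edgeR adjusted p of 0.345, and it was called lower without Yme1l-/- replicate 1 (-0.17, edgeR adjusted p = 0.0471). Against the median of its own chromosome 9 (-0.36), Atg4d was higher (0.27).

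In the ATG8 family, whose members sit on the autophagosome membrane and bind receptors, 2 genes of the GABARAP branch rose and Map1lc3a of the LC3 branch fell. The Gabarapl1 locus (chromosome 6, 129531950 to 129542346) starts before the annotated gene, which begins at 129533160. Gabarapl1 had 33.3, 36.0 and 34.3 CPM in WT and 62.2, 58.4 and 54.2 CPM in Yme1l-/-. No library of either genotype fell between 36.0 and 54.2 CPM. Its mean rose from 34.5 ± 1.39 to 58.2 ± 3.99 CPM (SD, n = 3), with a log2FC of 0.75 ± 0.06 (SE) and an edgeR adjusted p of 7.27e-07, and 0.41 was left relative to chromosome 6. Gabarap (chromosome 11, 69991143 to 69994951) had 109.1, 118 and 106.6 CPM in WT and 175.3, 153.3 and 157 CPM in Yme1l-/-. All Yme1l-/- libraries were again the higher ones. Its mean rose from 111.2 ± 6.02 to 161.8 ± 11.8 CPM (SD, n = 3), a log2FC of 0.54 ± 0.06 (SE) at an edgeR adjusted p of 1.11e-05, and 0.18 was left once the chromosome median was removed.

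Map1lc3a (chromosome 2, 155276297 to 155278073), which encodes LC3A, had 38.6, 39.3 and 33.5 CPM in WT and 26.5, 25.3 and 23.5 CPM in Yme1l-/-. All Yme1l-/- libraries were below WT. The mean fell from 37.1 ± 3.16 to 25.1 ± 1.52 CPM (SD, n = 3), a log2FC of -0.57 ± 0.07 (SE) at an edgeR adjusted p of 3.37e-05, on a chromosome with a median of -0.02. Gabarapl2, also called GATE-16, had 58.3, 59.0 and 52.9 CPM in WT and 58.5, 51.6 and 54.7 CPM in Yme1l-/-. These values were interleaved, and its log2FC was -0.05 ± 0.06 (SE) at an edgeR adjusted p of 0.498. The direction of Gabarapl2 depended on the scaling: it was 0.01 with upper-quartile scaling and 0.27 relative to its chromosome.

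The balance of GABARAP and LC3A transcripts was read within each library. The ratio of Gabarapl1 to Map1lc3a counts was 0.863, 0.917 and 1.02 in WT and 2.34, 2.31 and 2.31 in Yme1l-/-, a log2 difference of 1.31. Gabarap to Map1lc3a stood at 2.83, 3.00 and 3.18 in WT and at 6.61, 6.05 and 6.68 in Yme1l-/-, a log2 difference of 1.10. Both ratios were separated between genotypes by a wide margin, as was Gabarapl2 to Map1lc3a, which was 1.5 to 1.58 in WT and 2.04 to 2.33 in Yme1l-/-. These ratios share Map1lc3a, which was lower in Yme1l-/-, while Gabarapl2 itself was not called. They restate the fold changes of the single genes and give no separate support. Ratios of counts do not depend on library scaling but still hold the difference in gene length and that between chromosomes. With chromosome medians removed the log2FC values were 0.41 for Gabarapl1, 0.18 for Gabarap, 0.27 for Gabarapl2 and -0.55 for Map1lc3a. Each of these ratios, and Ulk2 to Ulk1, had a two-sided exact permutation p of 0.1 (n = 3 per genotype), the smallest that 3 against 3 can give, and 0.125 after Benjamini-Hochberg adjustment over the 5 ratios computed. For the fifth, Atg4a to Atg4d, the exact permutation p was 0.2. Per length, the authors' combined FPKM in WT put Gabarap first (121.2), then Gabarapl2 (49.7), Map1lc3a (48.8) and Gabarapl1 (21.4), and in Yme1l-/- the order was Gabarap (177.2), Gabarapl2 (47.8), Gabarapl1 (40.3) and Map1lc3a (33.2). These FPKM values carry no replicate error.

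Of the 5 soluble cargo receptors, which link ubiquitinated or other cargo to ATG8 proteins, 4 were higher and 1 was lower. The shares of all loci tested were 33.6% higher and 34.1% lower. The 4 higher receptors lie on chromosomes 6, 11 and 15, and on chromosomes 6, 10, 11 and 15 62.9% of all loci were called higher. The median log2FC of the 5 was 0.50, and 0.14 with chromosome medians removed. Calcoco1, a receptor described for the endoplasmic reticulum and Golgi (chromosome 15, 102706779 to 102722178), had 11.96, 14.7 and 13.6 CPM in WT and 39.3, 42.3 and 43.2 CPM in Yme1l-/-. The lowest Yme1l-/- library had over 2 times the highest WT level. The mean rose 3.10-fold, from 13.4 ± 1.38 to 41.6 ± 2.03 CPM (SD, n = 3), a log2FC of 1.63 ± 0.08 (SE) at an edgeR adjusted p of 1.04e-08. It lies on chromosome 15, like Atg101, but was higher than 90.5% of the tested loci there, and 1.04 remained with the chromosome median removed. Per length, its authors' combined FPKM went from 4.93, the lowest of the 5 receptors in WT, to 15.6, above Optn.

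Sqstm1, which encodes the receptor p62 (locus on chromosome 11, 50174444 to 50210827, within which the annotated gene spans 50199366 to 50210827), had 163, 164.4 and 151.7 CPM in WT and 293.8, 283.9 and 280.0 CPM in Yme1l-/-. Both genotypes were tight and far apart. The mean rose 1.79-fold, from 159.7 ± 6.94 to 285.9 ± 7.12 CPM (SD, n = 3), with a log2FC of 0.84 ± 0.05 (SE), an edgeR adjusted p of 3.20e-08, and 0.48 left relative to its chromosome. Per length it was the most abundant receptor in both genotypes by the authors' combined FPKM, at 93.9 in WT and 164.2 in Yme1l-/-. Mrnip overlaps Sqstm1 on the opposite strand, as do Gskip for Atg2b, Thap4 for Atg4b, Kri1 for Atg4d, Ankzf1 for Atg9a, Bid for Bcl2l13, Cntd1 for Becn1 and Kxd1 for Fkbp8. The same holds for 1700101I11Rik and Gabarapl1, 4732440D04Rik and Rb1cc1, and 4930551O13Rik and Optn. Genes with Gm names overlap Atg10, Atg14, Atg2b and Tax1bp1 in this way. The libraries kept strand, but whether the counting used it is not stated in the sources used here, so fragments of such partners may not be told apart.

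Nbr1, a p62 partner that also gathers ubiquitinated cargo, had 92.3, 96.4 and 103.1 CPM in WT and 130.3, 140.5 and 140.4 CPM in Yme1l-/-, and it rose by a log2FC of 0.50 ± 0.05 (SE; edgeR adjusted p = 9.18e-06). Tax1bp1, the relative of Calcoco1 that binds ubiquitin, had 169.1, 178.4 and 171 CPM in WT and 227.7, 245.9 and 236.9 CPM in Yme1l-/-, and it rose by 0.45 ± 0.04 (SE) on the log2 scale (edgeR adjusted p = 3.86e-06). Both genes were close to their chromosomes, with 0.14 and 0.11 left on the log2 scale after the chromosome medians were removed, and both were still called. Optn, the receptor optineurin, was the exception. It had 18.2, 17.9 and 20.0 CPM in WT and 14.8, 15.6 and 14.4 CPM in Yme1l-/-, a log2FC of -0.32 ± 0.07 (SE) at an edgeR adjusted p of 0.00186. Its fall was as large relative to chromosome 2 (-0.30).

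Of the 5 mitophagy genes 2 were higher, 2 were lower and 1 was not called, beside 33.6% higher and 34.1% lower among all loci tested. With chromosome medians removed 2 were higher, Pink1 and Bnip3l, and 1 was lower, Fundc1. Pink1, the kinase that marks depolarized mitochondria, had 8.61, 9.19 and 7.38 CPM in WT and 11.2, 11.3 and 11.9 CPM in Yme1l-/-. No library overlapped, and the log2FC was 0.45 ± 0.10 (SE) at an edgeR adjusted p of 0.00167. Bcl2l13, an outer membrane receptor, had 138.7, 135.7 and 137.2 CPM in WT and 168.2, 166.3 and 170.2 CPM in Yme1l-/-, and rose by 0.29 ± 0.04 (SE) on the log2 scale (edgeR adjusted p = 4.74e-05). The median of chromosome 6, on which it lies, was 0.34, and relative to it Bcl2l13 was at -0.05 and was not called.

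Fundc1, the hypoxia-responsive receptor, had 29.9, 29.4 and 25.9 CPM in WT and 19.1, 20.8 and 23.2 CPM in Yme1l-/-. It was lower in every Yme1l-/- library, with a log2FC of -0.43 ± 0.08 (SE) and an edgeR adjusted p of 7.00e-04, and was at -0.22 relative to the X chromosome (edgeR adjusted p = 0.037). Fkbp8, which binds LC3A at the outer membrane, fell from 241.3 to 208.5 CPM, a log2FC of -0.21 ± 0.06 (SE) at an edgeR adjusted p of 0.00809. Relative to chromosome 8, whose median was -0.32, Fkbp8 was at 0.10 and not called. Bnip3l, which encodes the receptor NIX, had 56.4, 66.2 and 55.8 CPM in WT and 63.6, 60.6 and 63.1 CPM in Yme1l-/-. WT replicate 2 was the highest of all 6 libraries, and the log2FC of 0.07 ± 0.07 (SE) did not pass (edgeR adjusted p = 0.358). Without WT replicate 2 it was 0.15 with an edgeR adjusted p of 0.0269.

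Tfeb, the transcription factor of lysosomal and autophagy genes (chromosome 17, 47737030 to 47792419), had 7.43, 6.96 and 7.96 CPM in WT and 11.7, 10.9 and 12.2 CPM in Yme1l-/-. No WT library reached the level of any Yme1l-/- library. Its mean rose from 7.45 ± 0.4996 to 11.6 ± 0.657 CPM (SD, n = 3), a log2FC of 0.64 ± 0.09 (SE) at an edgeR adjusted p of 8.16e-05, and 0.47 remained relative to its chromosome.

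The balance of higher and lower loci differed between chromosomes, and the autophagy genes were set against the chromosomes that carry them. The median log2FC of all tested loci was at least 0.25 on chromosomes 6, 10, 11 and 15 and at most -0.25 on chromosomes 8, 9 and 12. The first group carried 13 of the 36 genes, of which 12 were called higher and 1, Wipi1, was called lower. Of all loci on these chromosomes, 62.9% were called higher and 14.1% lower. The second group carried 4 genes, Atg2b, Fkbp8, Atg4d and Gabarapl2, of which 2 were lower and none was higher, where 60.8% of all loci were lower and 12.9% higher. On the remaining chromosomes lay 19 genes, and 6 of them were higher, 6 lower and 7 not called, beside 28.1% higher and 35% lower among all loci there.

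With every chromosome's median removed in the fit, 20 of the 36 genes were higher and 7 were lower, beside a background of 31.1% higher and 31.7% lower, and the median of the genes was 0.16. Of the 18 genes called higher at first, 15 remained so, Atg101 and Bcl2l13 were no longer called, and Becn1 was called lower. Of the 9 called lower, 6 remained so (Wipi1, Wipi2, Atg16l1, Map1lc3a, Optn and Fundc1), and Rb1cc1, Atg2b and Fkbp8 were no longer called. Atg14, Atg4b, Atg4d, Gabarapl2 and Bnip3l became called as higher. Whether a shift of a chromosome belongs to the deletion or to the clone was not tested.

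**Figure D3:**
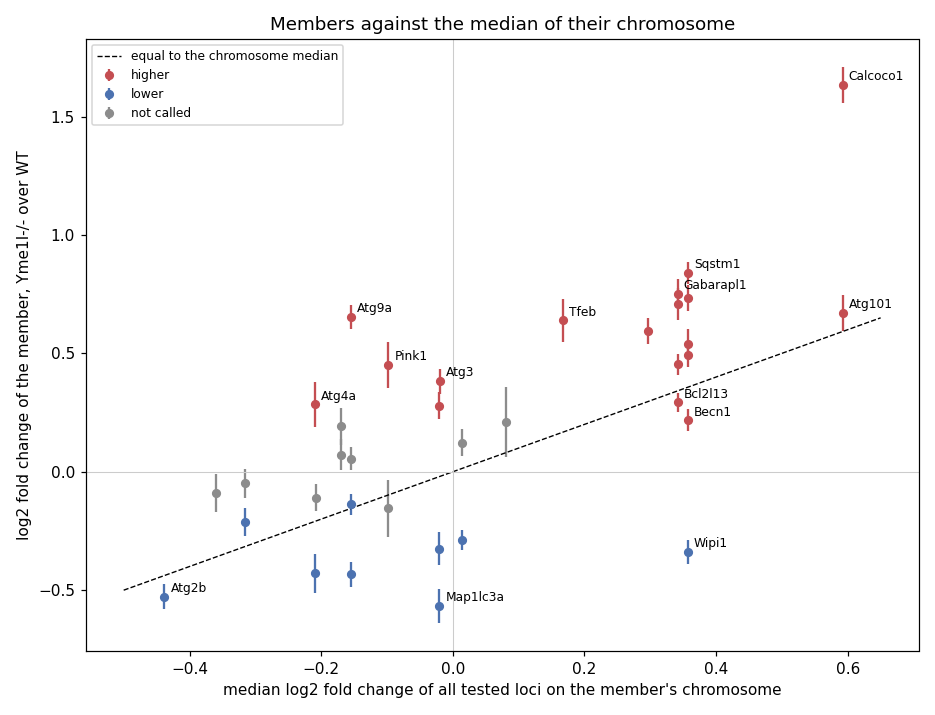
Log2 fold change, Yme1l-/- over WT, of each tested autophagy or mitophagy gene (bars are 1 standard error) against the median log2 fold change of all tested loci on its chromosome, with a dashed line where both are equal. Calcoco1 lies far above the line at a chromosome median of 0.59, where Atg101 lies close to it, and Wipi1 lies below it at 0.36.

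To set these genes in their pathway, 89 further genes were taken by name from 6 lists. Of these, 85 were tested, 34 (40%) were higher and 21 (24.7%) were lower, beside 33.6% and 34.1% of all loci, and their median log2FC was 0.05. With chromosome medians removed 31 were higher and 23 were lower. Among 15 tested genes of fusion with lysosomes, 9 were higher and 3 were lower, and 7 and 1 with chromosome medians removed. Vps39, a subunit of the HOPS tethering complex, rose by 0.54 ± 0.05 (SE) on the log2 scale. The SNARE gene Ykt6 rose by 0.45 ± 0.04 (SE), of which 0.09 was left with the chromosome median removed, and its call was lost (edgeR adjusted p = 0.0885). In the same list Lamp1, an abundant lysosomal membrane protein gene, fell from 827.9 to 564.7 CPM (log2FC -0.55 ± 0.05, SE), at an edgeR adjusted p of 3.37e-06, and was at -0.24 relative to its chromosome. Vps11 had a log2FC of -0.41 ± 0.05 (SE) and was at -0.05 and not called relative to its chromosome (edgeR adjusted p = 0.443).

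Nutrient signalling had 31 tested genes, 14 of them higher and 6 lower, and 11 and 8 with chromosome medians removed. The shares of all loci were 33.6% higher and 34.1% lower, and 31.1% and 31.7% with chromosome medians removed. Deptor, an inhibitor of mTOR on chromosome 15, rose from 13.7 to 70.8 CPM, a log2FC of 2.37 ± 0.07 (SE) at an edgeR adjusted p of 2.77e-10, and was at 1.78 relative to its chromosome. Prkaa2, a catalytic subunit of AMPK, rose from 1.00 to 3.69 CPM (log2FC 1.88 ± 0.19, SE). Rragb, a small GTPase that recruits mTORC1 to lysosomes, was at 8.02 ± 0.755 CPM (SD, n = 3) in WT. It had 4, 2 and 5 counts in Yme1l-/- replicates 1 to 3, a log2FC of -6.58 at an edgeR adjusted p of 1.15e-09. With so few counts the SE used here is not reliable, and none is given for Rragb. Its log2FC was -6.21 without Yme1l-/- replicate 2 and -6.80 without Yme1l-/- replicate 1. Fnip2, a folliculin partner, had a log2FC of -0.81 ± 0.06 (SE).

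Among the 7 other transcription factors 1 was higher and 5 were lower, beside 33.6% and 34.1% of all loci tested. Mitf, a relative of Tfeb, rose from 3.02 to 4.72 CPM (log2FC 0.65 ± 0.17, SE). With the chromosome median removed it was at 0.31 and not called (edgeR adjusted p = 0.138), which left 0 of the 7 factors higher and 6 lower. The shares of all loci were then 31.1% and 31.7%. Foxo1, a factor for autophagy and stress genes, fell from 75.4 to 20.8 CPM, a log2FC of -1.86 ± 0.05 (SE) at an edgeR adjusted p of 1.40e-10. Foxk2, a repressor of autophagy genes, fell by 0.54 ± 0.04 (SE) on the log2 scale, and was at -0.89 relative to its chromosome.

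Of 13 other initiation and membrane genes 4 were higher and 4 were lower, and 4 and 3 with chromosome medians removed. Atg16l2, the paralogue of Atg16l1, rose from 17.2 to 42.7 CPM, a log2FC of 1.31 ± 0.06 (SE) at an edgeR adjusted p of 7.48e-09, where Atg16l1 fell. Atg9b, the paralogue of Atg9a, fell by 1.10 ± 0.16 (SE) on the log2 scale. The lipid kinase complex subunit Pik3r4 had a log2FC of -0.36 ± 0.07 (SE), and Wdr45b, which belongs to the WIPI family, rose by 0.30 ± 0.06 (SE). With chromosome medians removed neither was called, as Pik3r4 equalled its chromosome (edgeR adjusted p = 1) and Wdr45b turned to -0.05 (edgeR adjusted p = 0.482).

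The 9 other selective receptors tested gave 1 higher and 2 lower, and the 10 other mitophagy genes 5 higher and 1 lower. With chromosome medians removed these counts were 5 higher and 3 lower for the receptors, with Sec62, Tex264, Ncoa4, Stbd1 and a locus that merges Ccpg1 with other genes higher, and 4 higher and 2 lower for the mitophagy genes. Stbd1, a receptor for glycogen, rose from 6.71 to 30.0 CPM, a log2FC of 2.16 ± 0.08 (SE) at an edgeR adjusted p of 1.39e-09. The endoplasmic reticulum receptor gene Retreg1 had a log2FC of -0.47 ± 0.07 (SE), and was at -1.06 relative to its chromosome. Wdfy3 had a log2FC of -0.27 ± 0.10 (SE) at an edgeR adjusted p of 0.0464. Its call was lost without WT replicate 1 (0.0521), WT replicate 3 (0.0987), Yme1l-/- replicate 1 (0.159) or Yme1l-/- replicate 3 (0.0769). Nipsnap1 and Nipsnap2, which mark damaged mitochondria for receptors, rose by 0.70 ± 0.09 (SE) and 0.66 ± 0.05 (SE) on the log2 scale, with 0.35 left for Nipsnap1 relative to its chromosome. Bnip3, the paralogue of Bnip3l, fell by 0.67 ± 0.13 (SE) on the log2 scale. WT replicate 2 stood apart here too, with 39.1 CPM against 28.3 and 29.2 in the other WT libraries. The Yme1l-/- libraries had 18.9, 19.4 and 22.2 CPM. Vamp8, Calcoco2 and Marchf5 did not reach the count minimum. Marchf5, listed as March5, had at most 3 counts in any library, in a locus from 37021291 to 37222139. Whether this reflects its level or the counting was not tested.

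**Figure D4:**
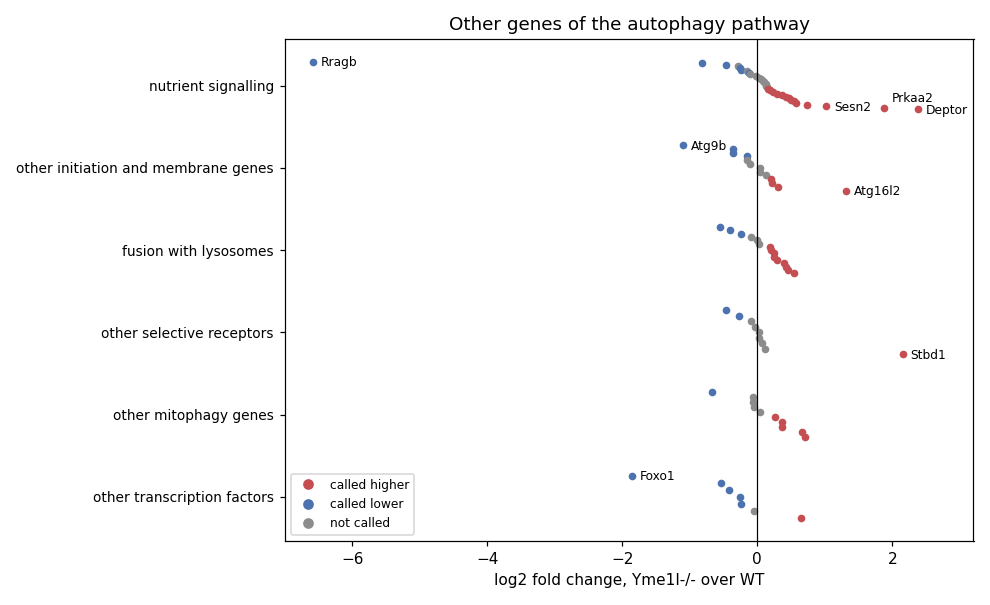
Log2 fold change, Yme1l-/- over WT, of 85 other tested genes of the autophagy pathway in 6 lists, with 1 point per gene, spread vertically within a list by rank and coloured by the edgeR call. Genes with an absolute value of at least 1 are named, and Rragb lies farthest from 0, at -6.58.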

How the data were processed

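Per the labels, poly(A) RNA of 3 WT and 3 Yme1l-/- MEF cultures was sequenced from stranded libraries. According to the submitters' processing notes and the study's methods, reads were aligned to mm10 (GRCm38) with HISAT2 2.0.4, transcripts were assembled with StringTie 1.3.3, and genotypes were compared with Cuffdiff 2.2.1. The table deposited by the authors holds raw counts per locus. A second table by the authors holds FPKM as 1 combined value per genotype, used for levels per length, and fold changes, p-values and q-values of the authors' test, which were not used. How fragments mapping to several places were counted is not given in the sources used here.

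Genotypes were compared on these counts in edgeR 4.0.16 under R 4.3.3 (filterByExpr with a minimum count of 10, TMM, robust quasi-likelihood test, two-sided, no covariate), with Benjamini-Hochberg adjustment over 13867 loci and an adjusted p under 0.05 as a call. The fit was checked on simulated counts. TMM factors lay between 0.973 and 1.04, and the biological coefficient of variation was 8.47%. Between cultures of the same genotype the chi-square per degree of freedom was at least 8.54, above sampling noise, and none was counted as a repeat. It was highest for WT replicate 2, at 34.4 and 37.2 against WT replicates 1 and 3, which gave 12.5 with each other. The series' design text describes the cultures of a genotype as independent, and p-values measure the spread among them. Log2 fold changes are model estimates, and CPM are TMM-scaled. The SE of a log2 fold change was derived from the test, as its absolute value divided by the square root of the F statistic. It is approximate, most of all for large changes at low counts.

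The genes and lists were chosen with earlier results of these data known. All 38 genes are accounted for, with full values for those with an absolute log2 fold change of at least 0.5 and for the ATG8, ATG4 and ULK families. Of each other list, up to 2 calls in each direction whose libraries did not overlap between genotypes were named. A gene of these lists is not reported here. Strand, overlaps and start sites came from GENCODE and RefSeq annotation of GRCm38. Alternatives were RLE and upper-quartile scaling, DESeq2 1.42.0, 2 other filters, a replicate block, each culture left out, chromosome medians removed by an offset, and merged loci left out.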

Additional observations from a re-analysis of the deposited data

How the results depend on the processing

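The 18 higher and 9 lower calls among the autophagy and mitophagy genes stayed within 17 to 20 and 7 to 10 over all alternatives, and the median log2 fold change of 0.21 stayed within 0.16 (chromosome medians removed) and 0.27 (upper-quartile scaling). When each culture was left out in turn, all loci called numbered 8847 to 9406, genes called higher 17 to 20 and lower 8 to 10, and the median 0.20 to 0.26. With RLE scaling, DESeq2 or no filter, all 36 autophagy and mitophagy genes kept direction and call. The direction turned with chromosome medians removed for Rb1cc1 (0.018), Becn1 (-0.14), Atg12 (0.10), Atg4d (0.27), Gabarapl2 (0.27), Fkbp8 (0.10), Bcl2l13 (-0.048) and, of the other pathway genes named by the rule, Wdr45b (-0.053), where the removed median makes the difference by construction, and with upper-quartile scaling for Gabarapl2 (0.011, the cause was not tested). Called pathway genes outside that rule, such as Rab7 (-0.10) and Prkaa1 (-0.044), turned too with chromosome medians removed. Upper-quartile scaling moved the median of all loci to 0.055, called Ulk1 (0.18) and Atg14 (0.25) higher and lost Rb1cc1 (-0.08). Among the other pathway genes named, Wdfy3 lost its call with upper-quartile scaling (-0.21) and without a filter (-0.28), and Ykt6, Vps11, Pik3r4 and Mitf lost theirs with chromosome medians removed.

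The correlations of same-numbered deviations between genotypes were 0.198, -0.158 and 0.0482. They differ in sign and cannot decide whether the replicate numbers pair the cultures. With the number as a replicate block, 9794 loci were called, against 9387 without it. The block gave 20 higher and 9 lower genes, Ulk1 and Atg14 being added. Of the 36 autophagy and mitophagy genes tested, Atg10 had the fewest counts (76 to 166) and the widest SE (0.15).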
